A study of Mus musculus with 10 samples.

Results

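Cultured spleen B cells from KOKI mice were compared with the same cells from wild-type (WT) mice after stimulation with lipopolysaccharide (LPS), a bacterial cell wall product that makes mouse B cells divide, switch antibody class and become antibody-secreting plasmablasts. The comparison rests on 4 of the 10 RNA-seq libraries in the series: 2 KOKI cultures and 2 WT cultures, chosen by their titles. Of the 46959 genes in the deposited count table, 15342 had enough counts to be tested. A further pair of WT cultures received LPS and SAHA (vorinostat), an inhibitor of histone deacetylases, and entered the fit because they share in its estimate of the spread between replicates.

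Spleen cells without CD43, a surface protein absent from resting B cells, were cultured with 5 µg/ml LPS for 2 days, in RPMI with 10% serum. The WT animals are described as BLACK-6 controls, and the labels give neither age nor sex. SAHA was used at 200 ng/ml. What KOKI stands for is not spelled out in the labels; the series title names a mini 3'RR, the 3' regulatory region being the group of enhancers downstream of Igha at the end of the immunoglobulin heavy chain (IgH) locus. No strain is named for the KOKI mice, so that an effect of KOKI and an effect of their background cannot be told apart. The titles and the design text give the KOKI cultures as LPS alone, while their treatment field names LPS with SAHA. Apart from the numbers in the titles no label ties replicates to separate animals, so the p-values reflect the spread among these libraries alone, and that spread may be partly technical.

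KOKI replicate 2 stood apart from the other 5 splenic libraries in its sex-linked genes. Xist, the RNA that silences the second X chromosome of females, reached 460 CPM there, CPM being a count scaled to the size of its library, and at most 0.399 CPM elsewhere. The Y-linked helicase gene Ddx3y stood at 1.08 CPM in that library and at 140 to 229 CPM in the others. KOKI replicate 2 thus carried the RNA pattern of a female and the 5 others that of a male, and for the main gene lists and V families the number called without it is given. Totals ran from 18614742 counts in KOKI replicate 2 to 29222145 in WT replicate 2. As to the B cell label, Ms4a1, which encodes CD20, stood at 867 CPM and 905 CPM in the KOKI cultures. Over 10 B cell markers that include Ms4a1 the median log2 fold change of KOKI over WT was 0.0045. Of these 1, Igkc, rose and is treated below. Markers of T and NK cells summed to 23.1 CPM and 22.2 CPM in WT and to 13.0 CPM and 12.5 CPM in KOKI cultures.

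The heavy chain locus holds, from one end to the other, V segments, D and J segments, and the constant genes Ighm, Ighd, Ighg3, Ighg1, Ighg2b, Ighg2c, Ighe and Igha. A B cell joins 1 V, D and J segment, transcribes them with Ighm and Ighd, and may later switch to a constant gene further along by DNA recombination. Switching follows transcription of the chosen constant gene, and the 3' regulatory region is known to drive that transcription. LPS alone is known to direct mouse B cells to IgG3 and IgG2b.

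By edgeR's quasi-likelihood test, 626 of the 15342 tested genes (4.08%) had a Benjamini-Hochberg adjusted p under 0.05 and are called here. Of these, 345 were higher in KOKI cultures (2.25%) and 281 were lower (1.83%). In 420 of the called genes the change was at least 2-fold. Protein-coding genes made up 443 of the called genes, and 91 were immunoglobulin segments or constant genes. In all 626 the KOKI values lay on one side of the WT values, as they did in 47.1% of all tested genes. The median log2 fold change over all tested genes was -0.02. Leaving out 1 library reduced the count: to 270 without WT replicate 1, 311 without WT replicate 2, 332 without KOKI replicate 1 and 273 without KOKI replicate 2.

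Among the constant genes, Ighg3 rose and Ighg2b and Igha fell, while Ighm differed by less than its standard error. Ighg3, at chr12:113359575-113361232 of mm10, stood at 9.21 CPM and 13.5 CPM in WT and at 38.4 CPM and 42.1 CPM in KOKI cultures. Its log2 fold change was 1.82 (SE 0.20, adjusted p = 0.0033 by edgeR), a rise of 3.54-fold. Ighg2b went the other way, with 27.3 CPM and 26.5 CPM in WT against 9.77 CPM and 10.3 CPM in KOKI cultures. It fell by 1.42 on the log2 scale (SE 0.17, adjusted p = 0.0050 by edgeR). Igha, the constant gene next to the 3' regulatory region, read 7.65 CPM and 10.7 CPM in WT and 0.853 CPM and 1.30 CPM in KOKI cultures. It fell by 3.11 on the log2 scale (SE 0.30, adjusted p = 0.0020 by edgeR), or 8.62-fold. The values of both groups lay apart for all 3 genes, and all 3 stayed under the threshold when any 1 of the 6 splenic libraries was left out, with adjusted p of at most 0.037.

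The other constant genes were not called. Ighm measured 2890 CPM and 3236 CPM in WT and 3068 CPM and 3136 CPM in KOKI cultures, with a log2 fold change of 0.02 (SE 0.21, adjusted p = 0.98 by edgeR). Ighd, which is made from the same transcripts as Ighm in mature B cells, had 200 CPM and 227 CPM in WT and 152 CPM and 119 CPM in KOKI cultures (log2 fold change -0.66, adjusted p = 0.094 by edgeR). Ighg2c had 71 and 201 counts in WT and 0 and 11 counts in KOKI cultures, a drop that did not pass the test (adjusted p = 0.076 by edgeR) but did without KOKI replicate 2 (adjusted p = 0.026). Ighg1 ranged from 1.32 to 3.18 CPM over the 4 cultures. Ighe, the IgE gene, had at most 6 counts in any of them and was not tested.

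The makeup of the switched constant RNA differed while its total did not separate the groups. Ighg3, Ighg1, Ighg2b, Ighg2c, Ighe and Igha together took 1.58% and 1.73% of all heavy chain constant counts in WT and 1.54% and 1.71% in KOKI cultures, so the values of the 2 groups overlap. Within that total, Ighg3 held 18.6% and 22.2% in WT and 76.2% and 74.4% in KOKI cultures. Ighg2b held 55.0% and 43.4% in WT and 19.4% and 18.2% in KOKI cultures. The Igha share was 15.4% and 17.5% in WT and 1.69% and 2.29% in KOKI cultures. These shares are given without intervals, and RNA from constant genes before and after switching is not told apart by such counts.

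**Figure D1:**
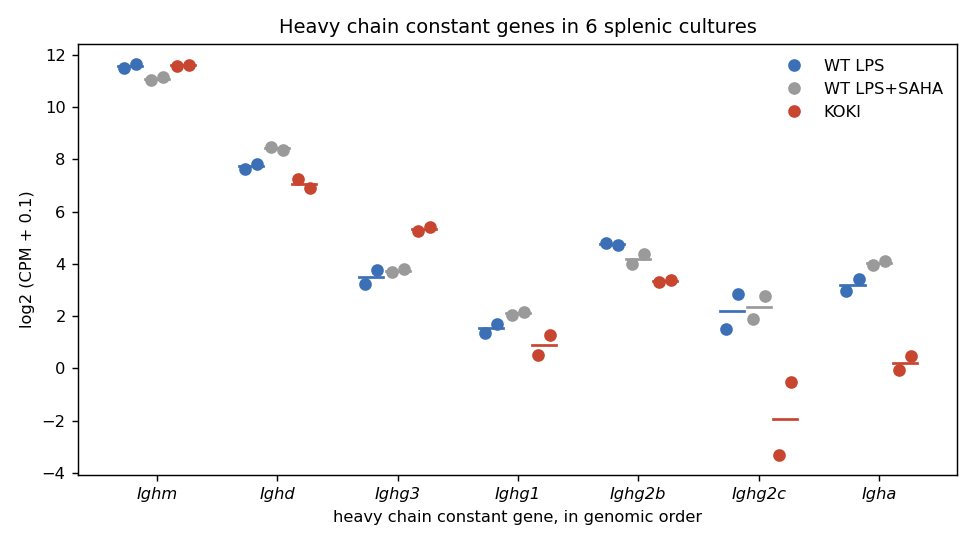
Levels of 7 heavy chain constant genes as log2 of CPM plus 0.1 in the 6 splenic cultures, each point 1 library and each bar the mean of the group's 2 libraries. The KOKI points for Ighg3 (38.4 and 42.1 CPM) lie above all WT points and those for Ighg2b and Igha below them, while the Ighm points of KOKI and WT LPS overlap.

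Lower V segments were mostly of 1 family. Of 183 heavy chain V segments, 104 were tested, and 8 were called higher and 38 lower. The V1 family, also known as J558 and the largest in the mouse, reaches farthest from the constant genes, with segments between 0.93 Mb and 2.59 Mb from Ighm. Of its 52 tested members, 29 were called lower and 1 higher, with a median log2 fold change of -2.46 over those tested. Without 1 of the 4 compared libraries 21 to 26 were called lower, with 26 without KOKI replicate 2. For 7 tested members 1 group was at 0, and the median was the same with these set to the bound that 3 counts over the group allow. In the other families 52 segments were tested, of which 9 were called lower and 7 higher, with a median of 0.03, and 6 lower and 4 higher without KOKI replicate 2. Of these, 14 tested segments lie among the V1 segments, and 3 of them were called lower and 0 higher.

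V1 counts made up 54.6% and 55.3% of all heavy chain V counts in WT, 54.4% and 56.1% in the SAHA cultures, and 24.5% and 24.6% in KOKI cultures. In CPM, the V1 sum was 472 and 499 in WT against 131 and 150 in KOKI cultures. The sum of the other families was 392 CPM and 403 CPM in WT and 405 CPM and 459 CPM in KOKI cultures. Counts assigned to V1 segments were thus lower in KOKI cultures, while those of the other families were at or above the WT level. Reads were matched to mm10, and no strain is named for the KOKI mice. Whether V1 RNA of other sequence went uncounted was not tested. Summed over all V segments, the log2 fold change was -0.62 (SE 0.18, adjusted p = 0.12 by edgeR) and was not called. D and J segment sums were not called either, with log2 fold changes of -0.59 and -0.26.

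Single segments gave the clearest contrasts. Ighv1-26, the most abundant of the called V1 segments, at chr12:114788372-114788805, had 67.3 CPM and 73.2 CPM in WT and 5.66 CPM and 8.50 CPM in KOKI cultures. Its log2 fold change was -3.32 (SE 0.21, adjusted p = 0.00022 by edgeR). Ighv1-64 had 22.3 CPM and 23.5 CPM in WT and 1.71 CPM and 1.62 CPM in KOKI cultures (log2 fold change -3.77, adjusted p = 9.3e-05 by edgeR). Of the 38 segments called lower, 10 had at most 10 counts over both KOKI libraries together, and Ighv1-36, Ighv1-38 and Ighv1-58 had none. Ighv3-2, annotated as a pseudogene, went up from 0.820 CPM and 0.315 CPM in WT to 31.9 CPM and 45.4 CPM in KOKI cultures (log2 fold change 6.10, adjusted p = 0.00025 by edgeR). Of the 8 segments called higher, 3 are annotated as pseudogenes, among them Ighv1-14, the V1 member that rose. V segments resemble each other, and how reads that match several were counted is not given in the sources used here, so single segments are uncertain.

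**Figure D2:**
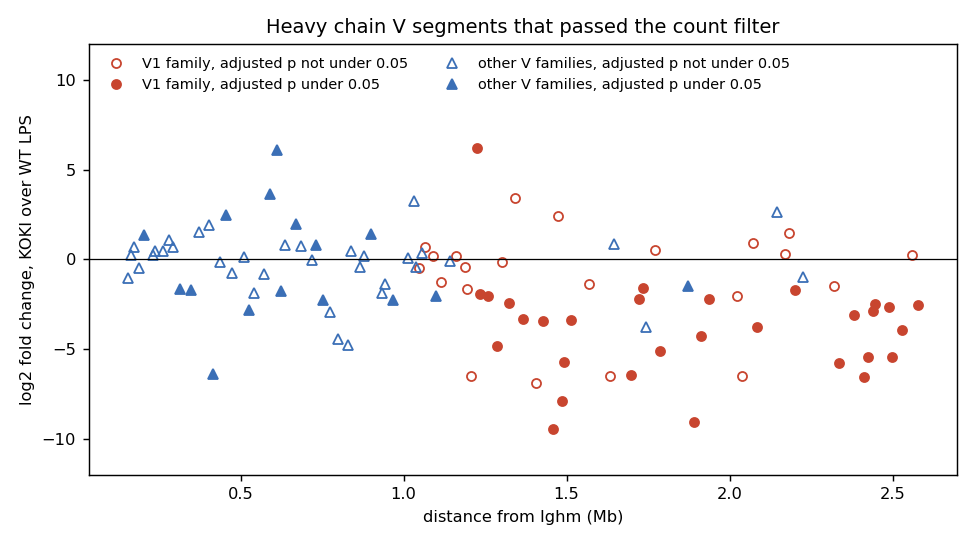
Log2 fold change of KOKI over WT LPS for the 104 tested heavy chain V segments against their distance from Ighm in Mb. Circles are V1 segments, triangles other families, and filled symbols have an adjusted p under 0.05; most filled circles lie below 0, and filled triangles lie on both sides of it.

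Light chain RNA rose. Igkc, the kappa constant gene on chromosome 6, read 801 CPM and 963 CPM in WT and 1948 CPM and 2195 CPM in KOKI cultures (log2 fold change 1.23, SE 0.20, adjusted p = 0.014 by edgeR). Of 102 tested kappa V segments 37 were called, each of them higher, and the median over those tested was 1.15; the number called was 18 without WT replicate 1, 27 without WT replicate 2 or KOKI replicate 1 and 17 without KOKI replicate 2. All 3 lambda V segments were called higher, with log2 fold changes of 0.84 to 1.21, and so was Iglc1, a lambda constant gene, at 1.01. Of the lambda V segments 2 stayed called without KOKI replicate 1 and 0 without any 1 of the other 3 compared libraries. The kappa V sum was 915 CPM and 943 CPM in WT and 1950 CPM and 2302 CPM in KOKI cultures. Vpreb3, whose protein binds newly made immunoglobulin chains, rose by 1.26 on the log2 scale. Igkc lost its call without WT replicate 1, KOKI replicate 1 or KOKI replicate 2, Iglc1 without any 1 of the 4 compared libraries, and Vpreb3 without WT replicate 1, WT replicate 2 or KOKI replicate 1.

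Genes that flank the heavy chain locus were tested as a list of 25, of which 21 could be tested. By edgeR no member was called, 4 had an unadjusted p under 0.05, and DESeq2 called 0; the median log2 fold change was 0.20. Tmem121, next to the locus beyond the 3' regulatory region, had 0 CPM and 0.0699 CPM in WT and 0.814 CPM and 0.596 CPM in KOKI cultures (adjusted p = 0.15 by edgeR). Within 10 Mb of the locus 99 genes that are no immunoglobulin genes were tested and 3 were called, which is 3.03% and near the share over all genes. These were Rapgef5, an activator of Rap GTPases, at -0.87, the pseudogene Gm6768 at 1.70, and Gm30948, a long noncoding RNA inside the V region, which had 42 and 83 counts in WT and none in KOKI cultures. Rapgef5 lost its call without any 1 of the 4 compared libraries. Over the autosomes and X, the share called ran from 1.86% on X to 12.3% on chromosome 12, and without immunoglobulin genes chromosome 12 stood at 5.26%.

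Genes of the antibody-secreting cell were higher where they were called. Of 22 tested genes of the plasma cell programme, 11 were called and each was higher, with a median log2 fold change of 0.86 over all 22. The counts without 1 of the 4 compared libraries were 8 or 9, with 8 without KOKI replicate 2. The fitted change was above 0 for 16 of the 22, and Ly6c1 and Ly6c2 had the lowest values at -3.60 and -1.76, neither of them called. Prdm1, which encodes Blimp-1, the repressor that ends the B cell programme, stood at 29.2 CPM and 30.7 CPM in WT and at 82.5 CPM and 76.1 CPM in KOKI cultures (log2 fold change 1.41, SE 0.12, adjusted p = 0.00091 by edgeR). Xbp1, the transcription factor of the secretory apparatus, went from 97.2 CPM and 106 CPM to 299 CPM and 282 CPM (log2 fold change 1.51). Jchain, which joins IgM into pentamers, went from 58.7 CPM and 44.3 CPM to 350 CPM and 265 CPM (log2 fold change 2.58). In each of these the groups lay far apart relative to the gap between replicates. Ell2, an elongation factor that favours the secreted form of heavy chain mRNA, rose by 1.39, Fam46c by 1.57, Fkbp11 by 2.78 and Sdc1, the plasma cell surface marker CD138, by 1.83. Irf4, which plasma cells need, measured 307 CPM and 335 CPM in WT and 414 CPM and 397 CPM in KOKI cultures and was not called (adjusted p = 0.29 by edgeR).

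Factors that hold B cell identity gave no call among 23 tested by edgeR, with 1 unadjusted p under 0.05 and 1 lower by DESeq2. Their median log2 fold change was 0.02. Pax5, the central factor of that list, had a log2 fold change of -0.20, Bach2 of -0.14 and Bcl6 of -0.15. In the list of class switching and mutation, 32 genes were tested and 2 called, which is 6.25% against 4.08% of all tested genes. The called genes include Prkdc, a DNA end joining kinase, higher by 0.64. Prkdc lost its call without any 1 of the 4 compared libraries.

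The unfolded protein response raises chaperones and export machinery of the endoplasmic reticulum (ER) when secretory proteins pile up there. Of its 36 tested genes 17 were called, each higher, with a median of 0.65, and 3 to 8 were called when 1 of the 4 compared libraries was left out. Sec24d, a coat protein of vesicles leaving the ER, went from 9.99 CPM and 10.9 CPM in WT to 42.7 CPM and 35.6 CPM in KOKI cultures (log2 fold change 1.91, SE 0.16, adjusted p = 0.00086 by edgeR). Creld2 went from 33.9 CPM and 37.8 CPM to 73.9 CPM and 69.9 CPM (log2 fold change 1.00, SE 0.13, adjusted p = 0.0051 by edgeR). Derl3, of the ER degradation machinery, rose by 1.67 and the disulfide isomerase gene Pdia4 by 1.09. Hsp90b1, the ER chaperone GRP94, read 919 CPM and 678 CPM in WT and 1713 CPM and 1652 CPM in KOKI cultures (log2 fold change 1.08, adjusted p = 0.029 by edgeR). Hspa5, the chaperone BiP, had a log2 fold change of 0.68 and was not called (adjusted p = 0.095 by edgeR). Without KOKI replicate 2 the list's count was 3 and its median 0.62.

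The promoters of called members were searched on both strands for the ER stress response element, here CCAAT and CCACG with 9 bases between them. It was present in 5 of the 12 called members with a promoter in the RefSeq table of GRCm38.p6 and in 9 of all 28 members with one, against 0.179% of the 9486 tested genes in that table. Each promoter spans 250 bases before to 50 bases after the start of the gene and is printed 5′ to 3′ on the gene's strand, with matches in capitals. A match describes letters in this window and is no evidence of binding. Creld2, on the plus strand at chr15:88819396-88819695, holds 1 match, and Hsp90b1, on the minus strand at chr10:86705395-86705694, holds 2. They are shown because both genes rose, and because the element lies on the opposite strand in Creld2 and once on each strand in Hsp90b1.
Creld2: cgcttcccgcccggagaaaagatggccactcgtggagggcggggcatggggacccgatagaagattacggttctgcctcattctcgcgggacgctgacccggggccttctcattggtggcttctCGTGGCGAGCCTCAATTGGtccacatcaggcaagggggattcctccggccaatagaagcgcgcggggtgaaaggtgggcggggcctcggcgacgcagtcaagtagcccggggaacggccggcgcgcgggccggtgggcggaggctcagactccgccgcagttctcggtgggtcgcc
Hsp90b1: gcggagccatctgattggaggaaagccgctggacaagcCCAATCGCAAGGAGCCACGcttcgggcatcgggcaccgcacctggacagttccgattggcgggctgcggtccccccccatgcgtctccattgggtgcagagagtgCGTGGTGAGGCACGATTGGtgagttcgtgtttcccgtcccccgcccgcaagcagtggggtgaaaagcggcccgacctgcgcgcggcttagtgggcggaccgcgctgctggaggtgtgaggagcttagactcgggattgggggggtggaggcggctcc

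Genes that respond to low oxygen were higher where they were called. Cells short of oxygen stabilise the transcription factor HIF-1, which raises glucose transport, glycolysis, mitophagy and the enzymes that in turn degrade HIF-1. Of 21 tested genes 11 were called, each of them higher, and the median log2 fold change over all 21 was 1.09. All 11 also lay above the WT cultures with SAHA. Bnip3, a receptor for the removal of mitochondria, stood at 8.74 CPM and 10.5 CPM in WT and at 56.7 CPM and 83.4 CPM in KOKI cultures (log2 fold change 2.86, SE 0.22, adjusted p = 0.00055 by edgeR). Its relative Bnip3l went from 32.0 CPM and 32.2 CPM to 89.7 CPM and 129 CPM (log2 fold change 1.77). Both pairs of values were well apart, with KOKI replicate 2 above KOKI replicate 1.

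Ankrd37 went from 3.63 CPM and 6.40 CPM in WT to 42.7 CPM and 52.1 CPM in KOKI cultures (log2 fold change 3.23, SE 0.26, adjusted p = 0.00073 by edgeR). Ak4, a mitochondrial adenylate kinase, went from 0.820 CPM and 1.71 CPM to 12.4 CPM and 20.3 CPM (log2 fold change 3.67, SE 0.42, adjusted p = 0.0031 by edgeR). Vegfa, the vascular growth factor, rose by 2.62, and P4ha1, a collagen prolyl hydroxylase, by 1.98. Egln1 and Egln3, the oxygen sensors that mark HIF for destruction, rose by 1.09 and 2.76. Hif1a itself measured 99.0 CPM and 99.3 CPM in WT and 79.2 CPM and 77.4 CPM in KOKI cultures (log2 fold change -0.34, adjusted p = 0.18 by edgeR). Members below the threshold included Car9, Plin2 and Hilpda, with log2 fold changes of -0.44, -0.48 and 0.17. The list's count was 6 without WT replicate 1, 7 without WT replicate 2, 10 without KOKI replicate 1 and 7 without KOKI replicate 2, and its median without KOKI replicate 2 was 0.83.

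The core of the hypoxia response element, ACGTG on either strand, was chosen for the search after these values were seen. It was present in 8 of the 9 called members with a promoter in the table, in 16 of all 17 members with one, and in 29.3% of all 9486, so it does not set the called members apart from the rest of the list. The promoters of the 2 called members with the smallest adjusted p are shown, both on the minus strand and each with 2 matches, which overlap in Bnip3. Ankrd37 lies at chr8:45999801-46000100 and Bnip3 at chr7:138909457-138909756.
Ankrd37: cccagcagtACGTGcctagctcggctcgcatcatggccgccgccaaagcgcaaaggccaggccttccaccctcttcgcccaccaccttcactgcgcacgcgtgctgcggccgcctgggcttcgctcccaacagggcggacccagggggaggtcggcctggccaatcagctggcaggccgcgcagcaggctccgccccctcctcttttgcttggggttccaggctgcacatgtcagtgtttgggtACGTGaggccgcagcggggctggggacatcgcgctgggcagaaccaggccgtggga
Bnip3: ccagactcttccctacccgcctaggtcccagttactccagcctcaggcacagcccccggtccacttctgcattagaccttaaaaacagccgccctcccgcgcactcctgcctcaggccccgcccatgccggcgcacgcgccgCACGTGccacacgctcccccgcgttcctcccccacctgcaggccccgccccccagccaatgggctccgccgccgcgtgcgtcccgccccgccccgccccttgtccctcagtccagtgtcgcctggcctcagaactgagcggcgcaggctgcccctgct

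Glycolysis rose in part. Of 27 tested genes of glycolysis and lactate export 8 were called, each higher, with a median of 0.69; the count was 4 without WT replicate 1, 6 without WT replicate 2, 9 without KOKI replicate 1 and 5 without KOKI replicate 2. Slc16a3, the lactate exporter MCT4, had 1 and 9 counts in WT and 568 and 800 counts in KOKI cultures (log2 fold change 7.43, SE 0.64, adjusted p = 0.00086 by edgeR). Emb, a partner protein of lactate transporters, went from 13.8 CPM and 13.4 CPM to 82.5 CPM and 88.4 CPM (log2 fold change 2.65, SE 0.13, adjusted p = 9.3e-05 by edgeR). Pdk1, the kinase that shuts pyruvate out of mitochondria, rose by 1.75, the glucose transporter gene Slc2a1 by 1.22 and Pfkl by 1.53. Ldha stood at 486 CPM and 552 CPM in WT and 798 CPM and 1130 CPM in KOKI cultures and was not called (adjusted p = 0.073 by edgeR). For many of these KOKI replicate 2 was higher than KOKI replicate 1, as in Tpi1 with 407 CPM and 667 CPM.

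Called genes of lipid synthesis were higher as well. Of 25 tested genes of cholesterol synthesis and uptake 12 were called, each higher, with a median of 0.88, and 4 to 10 were called without 1 of the 4 compared libraries, with 4 without KOKI replicate 2. Hmgcs1, which makes the precursor HMG-CoA, went from 207 CPM and 189 CPM in WT to 388 CPM and 476 CPM in KOKI cultures (log2 fold change 1.13, adjusted p = 0.012 by edgeR). It lost its call without WT replicate 1, WT replicate 2 or KOKI replicate 2. Lss rose by 1.35, Pmvk and the sterol carrier gene Stard4 both by 1.22, and Msmo1 by 1.01. The sterol regulatory element TCACNCCAC was present in 1 of 8 called members with a promoter in the table, that of Hmgcs1, and in 1 of all 18 with one, against 1.37% of all. Of 15 tested genes of fatty acid synthesis and desaturation, 4 were called higher: Scd2, a stearoyl-CoA desaturase, at 2.15, Fads2 at 2.38, Acsl3 at 1.27 and Elovl6 at 0.80, with 2 or 3 called without 1 of the 4 compared libraries and 2 without KOKI replicate 2. Scd2 went from 80.0 CPM and 94.0 CPM to 318 CPM and 453 CPM.

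**Figure D3:**
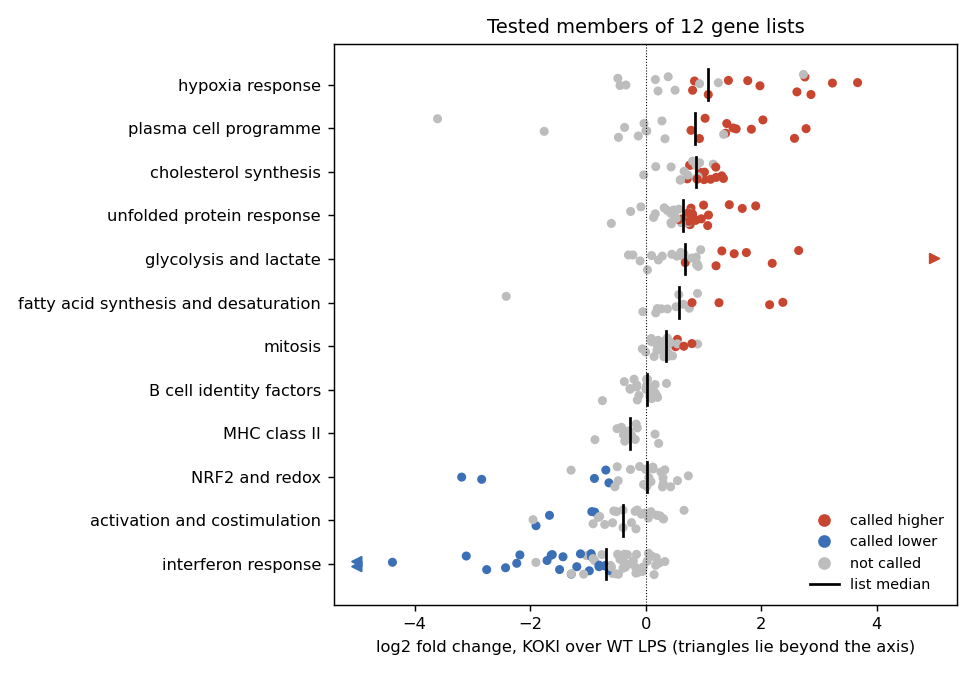
Log2 fold change of KOKI over WT LPS for each tested member of 12 gene lists, with black bars at the list medians and triangles for genes beyond the axis. Called members of the upper 7 lists lie to the right of 0, and those of the interferon, NRF2 and activation lists to the left.

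Called genes of the interferon response were lower. Type I interferon signals through a complex that includes STAT2 and IRF9 and binds the interferon-stimulated response element (ISRE) before antiviral genes. Of 61 tested genes 24 were called, each of them lower, with a median of -0.69, and 14 or 15 were called without 1 of the 4 compared libraries, with 15 without KOKI replicate 2. Ifit3, a member of an RNA-binding antiviral family, stood at 21.8 CPM and 25.3 CPM in WT and at 2.33 CPM and 3.19 CPM in KOKI cultures (log2 fold change -3.11, SE 0.23, adjusted p = 0.00041 by edgeR). Rsad2, which encodes viperin, an inhibitor of virus replication, went from 15.8 CPM and 18.9 CPM to 0.310 CPM and 1.46 CPM (log2 fold change -4.38, adjusted p = 0.0033 by edgeR). Neither gene had a KOKI value near its WT values.

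Eif2ak2, the RNA-sensing kinase PKR, went from 97.6 CPM and 95.2 CPM in WT to 30.2 CPM and 32.7 CPM in KOKI cultures (log2 fold change -1.62, adjusted p = 0.00047 by edgeR). Mx1 went from 29.2 CPM and 30.2 CPM to 7.60 CPM and 5.47 CPM (log2 fold change -2.18). Usp18, a brake on interferon signalling, fell by 2.42, Rtp4 by 2.75 and Ifit2 by 1.71. The transcription factor genes Irf9 and Irf7 fell by 0.97 and 1.13. Ifit3b, a near copy of Ifit3, fell by 6.44, and the split of reads between the pair is uncertain.

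The ISRE core GAAANNGAA, on either strand, was present in 11 of the 16 called members with a promoter in the table and in 25 of all 45 members with one, against 8.79% of all 9486 promoters. Those of Ifit3, on the plus strand at chr19:34583279-34583578 with 3 matches, and of Rsad2, on the minus strand at chr12:26456403-26456702 with 1, are shown as those of 2 called members with large falls. Matches appear as TTC, 2 bases, then TTTC where they lie on the other strand.
Ifit3: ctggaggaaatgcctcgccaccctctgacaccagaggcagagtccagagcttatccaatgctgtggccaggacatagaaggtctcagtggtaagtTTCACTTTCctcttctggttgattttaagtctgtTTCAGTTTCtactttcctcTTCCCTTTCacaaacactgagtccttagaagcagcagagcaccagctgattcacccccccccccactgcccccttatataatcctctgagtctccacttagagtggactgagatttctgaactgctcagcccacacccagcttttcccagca
Rsad2: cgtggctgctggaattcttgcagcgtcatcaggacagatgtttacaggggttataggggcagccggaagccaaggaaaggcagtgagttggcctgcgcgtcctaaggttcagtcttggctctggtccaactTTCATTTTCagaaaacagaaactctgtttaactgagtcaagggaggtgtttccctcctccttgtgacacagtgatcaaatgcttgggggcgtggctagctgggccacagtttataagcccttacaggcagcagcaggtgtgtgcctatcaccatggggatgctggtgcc

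**Figure D4:**
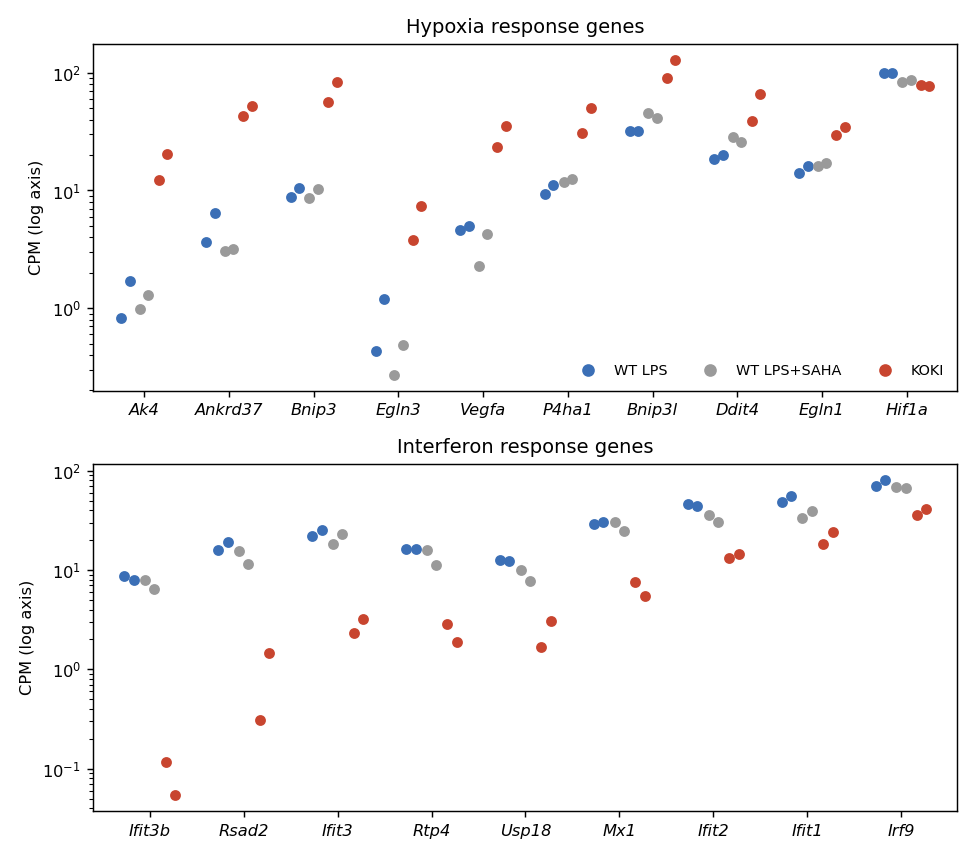
CPM on a log axis of 10 hypoxia genes (upper panel) and 9 interferon genes (lower panel) in the 6 splenic cultures, each point 1 library. The KOKI points of 9 hypoxia genes lie above every WT point, Hif1a being the exception, and those of the interferon genes lie below every WT point.

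The Schlafen family, whose members are in part interferon-inducible, changed in both directions. Slfn5 had 45.3 CPM and 49.0 CPM in WT and 4.03 CPM and 5.47 CPM in KOKI cultures (log2 fold change -3.32, adjusted p = 0.00015 by edgeR). Slfn8 had 63.3 CPM and 60.0 CPM in WT and 11.2 CPM and 9.74 CPM in KOKI cultures (log2 fold change -2.55). Slfn1 fell by 4.30 at low counts, and Slfn9 rose by 1.31, from 9.33 CPM and 11.4 CPM to 24.0 CPM and 27.3 CPM. Slfn9 lost its call without WT replicate 1 or KOKI replicate 2, and Slfn1 without WT replicate 1, WT replicate 2 or KOKI replicate 2. These are neighbouring, similar genes, so their separate values are uncertain. Among 9 tested cytosolic DNA and AIM2-like sensors only Aim2 was called, at -0.60, and it lost its call without any 1 of the 4 compared libraries.

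Fewer genes of other stress and activation lists moved. Of 27 tested genes of the NRF2 antioxidant response, 5 were called lower and the median was 0.02. Nqo1, a quinone reductase, went from 38.2 CPM and 24.5 CPM in WT to 4.22 CPM and 4.55 CPM in KOKI cultures (log2 fold change -2.84, SE 0.27, adjusted p = 0.0014 by edgeR). The other 4 were Gclc, Gsr, Srxn1 and the factor gene Nfe2l2, each of which lost its call without 1 or more of the 4 compared libraries. In the list of ATF4 targets 29 genes were tested and 1 called (3.45%, against 4.08% of all tested genes). It was Slc1a5, a glutamine transporter, at 97.8 CPM and 105 CPM in WT and 27.7 CPM and 33.7 CPM in KOKI cultures (log2 fold change -1.72, adjusted p = 0.00073 by edgeR).

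Surface molecules of activation and costimulation were lower where they were called. Of 27 tested genes of activation and costimulation, 4 were called lower, with a median of -0.39. Icosl, the ligand of ICOS on helper T cells, went from 31.6 CPM and 36.3 CPM in WT to 10.46 CPM and 10.99 CPM in KOKI cultures (log2 fold change -1.66, SE 0.15, adjusted p = 0.0012 by edgeR). Cd86 fell by 0.93, Pdcd1lg2 by 1.90 and Cd69 by 0.88, and these 3 lost their calls without 3 or 4 of the compared libraries taken singly. Of 24 tested receptors of mature B cell subsets 3 were called lower and 1 higher. Fcmr, the receptor for IgM, went from 93.7 CPM and 120 CPM to 38.2 CPM and 37.0 CPM (log2 fold change -1.51, adjusted p = 0.0017 by edgeR). S1pr1, the receptor that guides lymphocytes out of tissue, fell by 1.00 and Cd55 by 0.82, while the integrin gene Itga4 rose by 0.79. S1pr1 lost its call without KOKI replicate 1, Cd55 without WT replicate 1, WT replicate 2 or KOKI replicate 2, and Itga4 without any 1 of the 4 compared libraries. Of 24 tested genes of the B cell receptor and its coreceptors 2 were called (8.33%, against 4.08% of all tested genes), both lower. Lilrb4a, an inhibitory receptor, went from 10.1 CPM and 9.30 CPM to 1.74 CPM and 1.52 CPM (log2 fold change -2.56), and Cd72 fell by 0.68 but lost its call without any 1 of the 4 compared libraries.

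In the Toll-like receptor and NF-kB list, 3 of 30 tested genes were called lower: Tlr7, a sensor of RNA, at -1.13, Nfkbid at -0.80 and Cd180, a relative of the LPS receptor, at -0.60. The 3 calls are 10% of that list, against 4.08% of all tested genes. Each of the 3 lost its call without KOKI replicate 1. Nfkbid lost it also without WT replicate 2 or KOKI replicate 2, and Cd180 without any 1 of the 4 compared libraries. Of 19 tested cytokine genes, Vegfa and Ccl22 were called higher and Cxcl10, Tgfb3, Tnf and Ccl5 lower. Tnf went from 16.1 CPM and 20.5 CPM in WT to 7.83 CPM and 9.85 CPM in KOKI cultures (log2 fold change -1.05, adjusted p = 0.022 by edgeR). The count of lower cytokine genes was 1 to 3 without 1 of the 4 compared libraries. Ccl22 went from 25.2 CPM and 26.6 CPM to 51.1 CPM and 60.5 CPM (log2 fold change 1.11).

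Few single genes of cell division were called, while the mitosis list lay mostly above 0. Of its 30 tested genes 4 were called higher, 29 had a fitted change above 0, and the median was 0.35. The KOKI values lay apart from the WT values in 26 of the 30, against 47.1% of all tested genes. Its summed level was 3924 CPM and 3882 CPM in WT and 5351 CPM and 5450 CPM in KOKI cultures. The called members include Mki67, the proliferation marker, with 645 CPM and 649 CPM in WT and 1161 CPM and 1093 CPM in KOKI cultures (log2 fold change 0.80, adjusted p = 0.046 by edgeR). Of 32 tested genes of DNA replication, Ccne1 at 0.64 and Cdc6 at 0.57 were called (6.25%, against 4.08% of all tested genes). All 6 calls were lost without any 1 of the 4 compared libraries. Of 21 tested genes of the Bcl2 family and cell death, 1 was called higher and 1 lower, the latter Bcl2l2 with a log2 fold change of -0.75, and neither was called without KOKI replicate 2. These 2 calls are 9.52% of that list, against 4.08% of all tested genes. Further lists gave no call by edgeR. Of 14 tested MHC class II genes, 5 had an unadjusted p under 0.05 and DESeq2 called 4 lower, with a median log2 fold change of -0.26. Of 28 tested genes of Myc and the nucleolus, 1 had an unadjusted p under 0.05 and DESeq2 called 0. Among 29 tested genes of the respiratory chain these numbers were 4 and 0, among 17 histone deacetylases and sirtuins 2 and 0, and among 27 Polycomb and DNA methylation genes 5 and 1.

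Markers of other cells gave 2 calls, both in the macrophage and monocyte list. Of 11 tested macrophage and monocyte markers 2 were called lower: Apoe, from 41.8 CPM and 31.5 CPM in WT to 5.58 CPM and 4.33 CPM in KOKI cultures (log2 fold change -2.88, adjusted p = 0.00038 by edgeR), and Lyz2 at -1.41. The 2 calls are 18.2% of that list, against 4.08% of all tested genes, and Lyz2 lost its call without WT replicate 1 or KOKI replicate 1. The fitted change was below 0 for all 11, with a median of -1.08. The summed level of that list was 551 CPM and 569 CPM in WT and 433 CPM and 491 CPM in KOKI cultures. Its defining members C1qa, C1qb, C1qc and Fcgr1 were at or near 0 in all 4. Of 17 tested T and NK cell markers none was called by edgeR (3 at an unadjusted p under 0.05, 1 lower by DESeq2), and the median was -1.57 at levels mostly under 2 CPM, or -1.13 with 1 gene at 0 in 1 group set to its bound. Dendritic cell markers summed to 84.5 CPM and 68.3 CPM in WT and to 72.3 CPM and 77.6 CPM in KOKI cultures, so the groups overlap. By edgeR none of 7 dendritic, 4 neutrophil and 5 erythroid markers tested was called, with 0, 0 and 2 at an unadjusted p under 0.05 and 0, 0 and 2 called by DESeq2. The part of such cells in the lower interferon, cytokine and receptor genes was not tested. In these bulk samples fewer cells of a type and less RNA per cell cannot be told apart.

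Some genes were read in one genotype and not in the other. Ccnb1ip1, a ubiquitin ligase gene, had no count in the 4 WT splenic cultures and 655 and 405 counts in the KOKI cultures, at least 428-fold higher against a floor of 3 counts over the WT group. Rprl3, an RNA gene of the ribonuclease P family, had none in WT and 491 and 423 counts in KOKI cultures. Oasl2, an interferon-inducible gene, had 222 and 377 counts in WT and none in KOKI cultures, at least 161-fold lower. BC147527 had 160 and 100 counts in WT, Gm27177 had 246 and 278, and Map3k19 had 94 and 66, and each had none in KOKI cultures. Cyp1a1, a target of the aryl hydrocarbon receptor, had 123 and 106 counts in WT and 1 and 0 in KOKI cultures. In all, 19 genes called lower had no count in either KOKI library, and 6 genes called higher had none in either WT library.

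The 4 femoral libraries, each a pool of 3 mice with no culture described, showed a different division of these genes. Ccnb1ip1 had 148 and 194 counts in the femoral controls, which lack RAG2 and gamma c and carry no KOKI, 163 counts in the KOKI pool that also lacks RAG2 and gamma c, and 118 counts in the KOKI pool that lacks RAG2. The KOKI pools thus differ in background, are given in that order below, and are no replicates of each other. Rprl3 had 3057 and 855 counts in the controls and 1039 and 250 counts in the KOKI pools. Oasl2 had 639 and 840 counts in the controls and 246 and 291 in the KOKI pools, and BC147527 had 154 and 260 against 231 and 173. Ccnb1ip1 and Rprl3, at 0 in the WT spleen, were thus read in the femoral controls, and Oasl2 and BC147527, at 0 in the KOKI spleen, in both femoral KOKI pools. Of the 19 genes without a count in the splenic KOKI cultures, 6 had at least 10 counts in both femoral KOKI pools, and of the 6 without a count in WT, 4 had at least 10 in both femoral controls. Tissue, culture and background differ between spleen and femur here and cannot be told apart.

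**Figure D5:**
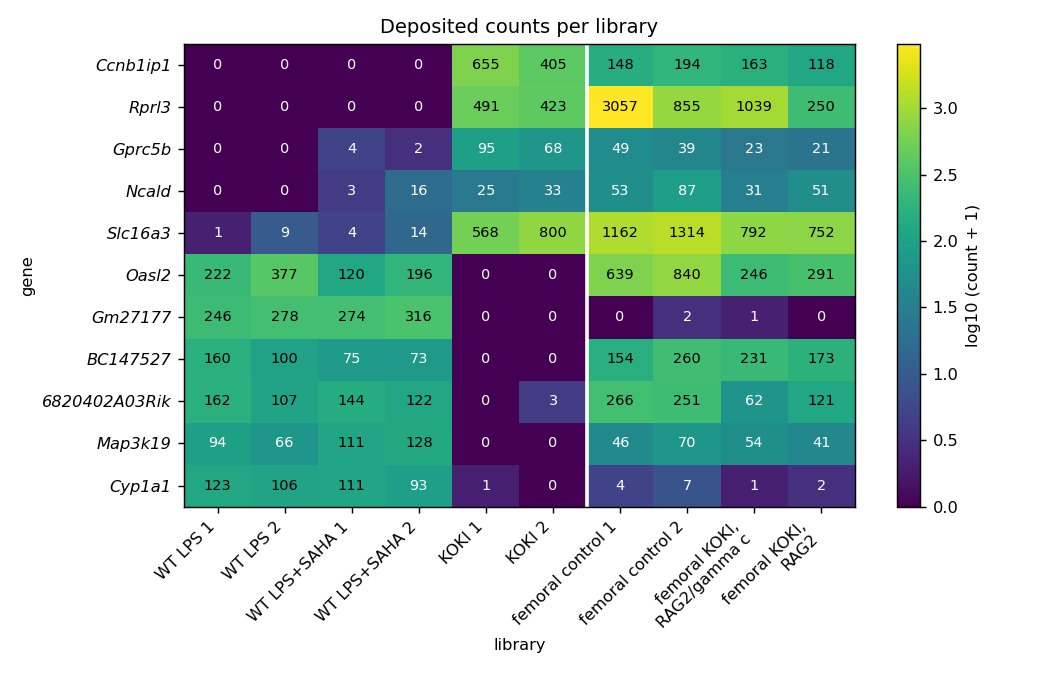
Deposited counts of 11 genes in all 10 libraries, with the colour showing log10 of the count plus 1 and the count printed in each cell. The top 4 genes are at 0 in both WT LPS cultures and reach 655 counts in KOKI cultures, and Oasl2, BC147527 and Map3k19 are at 0 in the splenic KOKI cultures but not in the femoral KOKI pools.

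Large rises also included Gprc5b, with no count in WT and 95 and 68 counts in KOKI cultures, Enpp4 at a log2 fold change of 4.16, Prelid2 at 4.03 and CAAA01093177.1 at 4.99. Eno1b, which is nearly identical to the enolase gene Eno1, rose by 6.15 on the log2 scale, and the division of reads between them is uncertain. The smallest adjusted p belonged to Rps13-ps1, a ribosomal protein pseudogene, with 2.54 CPM and 2.34 CPM in WT and 359 CPM and 366 CPM in KOKI cultures (log2 fold change 7.21, adjusted p = 9.8e-07 by edgeR). Gm14165, Gm6472 and Rps15a-ps6 were among the 5 smallest as well, with log2 fold changes of 6.42, 3.01 and 4.07. Pseudogene counts of this kind depend on how reads that match several places were assigned. Among the largest fitted falls were 3 genes with low counts in WT and none in either KOKI culture: Hpn with 46 and 27 counts in WT, AI607873 with 42 and 35, and the receptor tyrosine kinase gene Met with 32 and 19. Against a floor of 3 counts over the KOKI group these were at least 20.2-fold, 21.1-fold and 14.1-fold lower. AI607873 and Met lost their calls without any 1 of the 4 compared libraries, and Hpn without WT replicate 1, KOKI replicate 1 or KOKI replicate 2.

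Since the treatment field of the KOKI cultures names SAHA, they were also set against WT cultures with LPS and SAHA. There 3639 of 15342 genes were called (23.7%), 2160 higher and 1479 lower. Gsn, which encodes gelsolin and is often raised by inhibitors of histone deacetylases, read 10.0 CPM and 13.6 CPM in WT with LPS, 33.9 CPM and 34.8 CPM in WT with SAHA, and 15.1 CPM and 19.8 CPM in KOKI cultures. Its KOKI values lay nearer to those of WT without SAHA. The whole list of genes often raised by these inhibitors summed to 1269 CPM and 1102 CPM in WT with LPS. Its sum was 1198 CPM and 1248 CPM in WT with SAHA and 2847 CPM and 1446 CPM in KOKI cultures. The sums of WT with LPS and WT with SAHA thus overlap, and Gsn is 1 gene named after its values were seen. Whether the KOKI cultures received SAHA was not tested. Of 11 tested genes often raised by such inhibitors, Tubb2b alone was called between KOKI and WT with LPS, at a log2 fold change of 1.17, and lost its call without WT replicate 1, WT replicate 2 or KOKI replicate 2. The median of the 11 was 0.54. In 8 of them the KOKI values lay apart from those of WT with LPS, against 47.1% of all tested genes. Against WT with SAHA, Ighg3 had a log2 fold change of 1.60 (adjusted p = 0.0020 by edgeR) and Igha of -3.93 (adjusted p = 0.00041 by edgeR), the same directions as against WT with LPS; both comparisons share the KOKI libraries.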

How the data were processed

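RNA-seq was made with the TruSeq Stranded Total RNA kit from 500 ng RNA, per the labels' protocols. The authors deposited 1 table of raw counts per gene, whole numbers that were not normalised. Per the submitters' processing notes, STAR 2.4.0a, featureCounts of Subread 1.4.6-p1 and mm10 (GRCm38) were used; the sources used here do not state strand or multi-mapping settings. The table holds 46959 genes by symbol, with 100 spike-in and phiX entries (1 to 17 counts per library) left out.

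The 6 splenic libraries in 3 groups were fitted with edgeR 4.0.16 in R 4.3.3: TMM, filterByExpr (minimum count 10, minimum total 15), quasi-likelihood F test, adjusted p under 0.05. CPM values of genes and of V segment sums were computed here with TMM library sizes. They are comparable between libraries but not between genes of different length. Summed levels of gene lists were instead scaled to the total counts of each library, without TMM factors. V, D and J segments were summed in a further fit, which gave the constant gene values; single segments come from the former. Replicate pairs were checked and were not copies. DESeq2 1.42.0 and the other alternatives appear below. The steps were tested on simulated data. A count of 0 was taken to allow 3 counts. The members, lists and tests were chosen with earlier results of these data known. Named genes were drawn from the 12 largest rises and falls, up to 6 called members per list and genes read in 1 genotype only. Not every gene of these sets is given. Also named were the heavy chain genes, called genes near them and the 5 smallest adjusted p. Further called list members, and Gsn, were named after their values were seen. Promoters are from RefSeq, for 9486 of the tested genes.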

Additional observations from a re-analysis of the deposited data

How the results depend on the processing

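The number of genes called between KOKI and WT LPS (626) was 622 with RLE size factors, 624 with TMM factors computed without immunoglobulin genes, 571 with the 4 compared libraries alone, 421 with all 10 libraries and 492 among autosomal genes outside the immunoglobulin loci. It was 1254 without the low-count filter (594 higher, 660 lower) and 1097 with DESeq2 (577 higher, 520 lower). With all 10 libraries 214 were higher. Leaving out 1 splenic library gave 270 to 708 genes, 123 to 389 higher and 132 to 319 lower, and 1703 to 3463 between KOKI and WT LPS+SAHA; where a group kept 1 library, the spread of the others stood in for its own. The 3 called heavy chain features became 6 without the filter and 5 with DESeq2. Of 120 called named genes, 118 stayed called with RLE factors, 120 with DESeq2, 105 with 4 libraries, 91 with all 10 and 70 to 77 without 1 of the 4 compared libraries. The log2 fold change of Ighm was -0.019 without the filter and -0.0041 with all 10 libraries, and -0.058 to 0.10 over the fits that left out 1 library. For mt-Nd6 those fits gave -0.79 to 0.12, for S100a9 -2.33 to 1.27 and for S100a8 -1.48 to 0.39, the upper ends without WT replicate 1. None of these 4 genes was called, and the cause was not tested.

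The titles number the replicates 1 and 2 in each group, but KOKI and WT mice share only the number. Same-numbered KOKI and WT LPS libraries deviated from their group means with a correlation of 0.13. For WT LPS and WT LPS+SAHA it was 0.45, and no label says whether those share an animal; the fit of the 4 compared libraries (571 genes) leaves the SAHA cultures out. With the replicate block 1144 genes were called (612 higher, 532 lower) and 6 heavy chain features, Ighd, Ighg2c and the V sum being added; 119 of the 120 named genes stayed called.

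Depth limits the rarest constant genes: Ighe had at most 6 counts in a WT LPS or KOKI library and was not tested.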
